A study of Mus musculus with 8 samples.

Results

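The milk and saliva protein antigens are 10 genes whose products are secreted by the mammary gland or by the salivary glands and airways: the caseins Csn1s1, Csn1s2a, Csn2 and Csn3, the whey proteins Wap and Lalba, and the saliva and airway proteins Smr3a, Bpifa1, Bpifa2 and Muc10. They were listed by name, from the 27179 genes counted in each of 8 libraries of polyadenylated RNA. The libraries came from thymic epithelial cells (TECs) of C57BL/6 mice: 1 library of medullary cells (mTECs) labelled as a knockout (KO) of Mcl1, a survival gene in the BCL-2 family, against 2 of wild-type (WT) mTECs, and 1 library of cortical cells (cTECs) with the same KO label against 4 of WT cTECs. The study lists the WT libraries as biological replicates, and each KO group is 1 library, so no spread between KO samples was measured. The sources used here give no Cre or other driver of the deletion, no age of the mice and no sort gates.

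The thymus presents T cells with proteins of other organs, so that T cells reactive to them are removed or diverted before they leave. mTECs transcribe many genes that are otherwise kept to 1 organ, and the transcriptional regulators Aire and Fezf2 drive separate sets of them. Medullary cells that mimic secretory, tuft or other peripheral cell types are a further source, while cTECs select T cells earlier, on a cortex-specific set of peptides. In the mammary gland the caseins and whey proteins are switched on at lactation by prolactin acting through its receptor, the kinase JAK2 and the factor STAT5, which binds the letters TTCNNNGAA.

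The 4 caseins lie with Smr3a and Muc10 on chromosome 5, Bpifa1 and Bpifa2 on chromosome 2, Wap on chromosome 11 and Lalba on chromosome 15. The 250 bases before the start site given by RefSeq (GRCm38.p6, the build named mm10) were read for 9 of the 10 genes. They are shown for the pair with the STAT5 letters, Csn2 on the minus strand at chr5:87699426-87699675 and Csn1s1 on the plus strand at chr5:87665958-87666207, and for the 2 BPI fold genes among the 10, both on the plus strand, Bpifa1 at chr2:154142630-154142879 and Bpifa2 at chr2:154008026-154008275. Capitals mark the STAT5 letters in Csn2 and Csn1s1 and the TATA box letters TATAAA in Bpifa1, and each run is written 5′ to 3′ and ends at the base before the start.
Csn2: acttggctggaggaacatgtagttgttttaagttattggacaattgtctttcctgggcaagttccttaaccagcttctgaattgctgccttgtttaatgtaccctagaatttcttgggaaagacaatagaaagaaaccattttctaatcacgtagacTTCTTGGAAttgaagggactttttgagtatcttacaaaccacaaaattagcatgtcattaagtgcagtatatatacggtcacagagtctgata
Csn1s1: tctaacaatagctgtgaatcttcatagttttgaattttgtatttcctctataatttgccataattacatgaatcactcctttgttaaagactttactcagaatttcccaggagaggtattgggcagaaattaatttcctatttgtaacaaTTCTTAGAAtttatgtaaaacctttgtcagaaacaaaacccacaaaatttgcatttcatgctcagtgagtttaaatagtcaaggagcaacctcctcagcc
Bpifa1: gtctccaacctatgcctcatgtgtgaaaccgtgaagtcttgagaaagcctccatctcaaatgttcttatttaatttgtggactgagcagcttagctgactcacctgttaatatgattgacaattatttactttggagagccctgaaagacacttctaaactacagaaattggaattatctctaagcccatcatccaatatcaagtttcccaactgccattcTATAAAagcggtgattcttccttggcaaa
Bpifa2: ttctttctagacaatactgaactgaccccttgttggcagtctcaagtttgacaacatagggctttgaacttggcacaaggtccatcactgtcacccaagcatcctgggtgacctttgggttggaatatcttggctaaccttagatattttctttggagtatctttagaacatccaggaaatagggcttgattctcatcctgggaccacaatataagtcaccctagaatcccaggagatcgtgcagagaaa

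TTCTTGGAA stood 93 to 85 bases before the start of Csn2 and TTCTTAGAA 100 to 92 bases before that of Csn1s1. On either strand, TTCNNNGAA was in 7.02% of 32841 RefSeq promoters cut to the same length, TATAAA in 12.4%, and TGTTTAC, the forkhead letters searched on both strands, in 3.17%. TATAAA stood 29 to 24 bases before the start of Bpifa1, and the forkhead letters were found in Muc10 alone, on the minus strand, 116 to 110 bases before its start. None of these motifs was in this window of Csn1s2a, Wap, Lalba, Smr3a or Bpifa2. The 3 searches shared no match. A match is a run of letters, not a measured binding site.

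Total counts ran from 11516780 in mTEC KO to 19171953 in mTEC WT 1, and genes with a count from 17800 in cTEC KO to 22708 in mTEC WT 2. Levels are CPM, counts scaled to a library total that was itself adjusted by TMM, and CPM per kb divides them by the gene length in the deposited tables. Mcl1 was at 78.6 CPM in mTEC KO, against 113 and 203 in mTEC WT, a log2 fold change of -1.01 ± 0.36 that was not called (edgeR adjusted p = 0.538). It was at 8.22 CPM in cTEC KO, against 228 to 302 in cTEC WT, a log2 fold change of -4.97 ± 0.44 (edgeR adjusted p = 0.000295). Loss of the Mcl1 transcript was therefore measured in cTEC KO and not shown in mTEC KO, which bears on every mTEC KO value. The cTEC KO library stood apart from the cTEC WT libraries in its mature mTEC and tuft markers. The 6 mature mTEC markers summed to 20.4 CPM in cTEC KO, with Aire at 0, against 307 to 503 CPM in cTEC WT. The 6 tuft markers summed to 38.2 CPM in cTEC KO, with 3 of them at 0, against 914 to 1539 CPM in cTEC WT. That range lay above mTEC WT, at 633 and 694 CPM. The cTEC WT libraries held RNA of mature mTEC markers against their label, with Aire at 28.9 to 116 CPM. The 6 cTEC markers summed to 4089 CPM in cTEC KO, against 1620 to 3402 in cTEC WT. In bulk RNA, fewer cells of a type and less RNA per cell cannot be told apart.

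Beta-casein, Csn2, was the casein with the most RNA per length and was a gene of high rank in mTECs. It had 641 CPM in mTEC KO, against 583 and 754 CPM in mTEC WT. In cTEC KO it had 0 counts, against 126, 117, 97.4 and 98.6 CPM in cTEC WT. The mTEC KO value lay between the mTEC WT values, and every mTEC value lay above every cTEC value. Per kb of transcript Csn2 was at 572 CPM in mTEC KO, rank 98 of all genes there, against ranks 102 and 63 in mTEC WT. It ranked between 639 and 903 in cTEC WT.

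The alpha-type caseins, which with Csn2 make up most of the micelle, were far lower per length than Csn2. Csn1s1, alpha-S1 casein, had 3.61 CPM in mTEC KO, against 6.37 and 7.75 in mTEC WT, and 0 counts in cTEC KO, against 0.57, 0.369, 0.814 and 0.384 CPM in cTEC WT. Csn1s2a, an alpha-S2-like casein, had 20.9 CPM in mTEC KO, against 14.3 and 27.7 in mTEC WT, and 0 counts in cTEC KO, against 1.07, 1.62, 0.271 and 0.0548 CPM in cTEC WT. For both genes the mTEC libraries lay above all cTEC libraries. Csn3, kappa-casein, which coats and stabilises the micelle, had 7.22 CPM in mTEC KO, against 14.5 and 11.5 in mTEC WT, and 0 counts in cTEC KO, against 2.42, 4.64, 2.66 and 0.0548 CPM in cTEC WT. Its mTEC WT and cTEC WT values did not overlap, but cTEC WT 4 held a single count. Csn3 lies inside the long non-coding gene 1700066N21Rik, which was also counted, and with no strand given the reads of the pair cannot be told apart.

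The whey proteins were low. Wap, whey acidic protein, had 7.49 CPM in mTEC KO, against 4.18 and 5.43 in mTEC WT, and 0 counts in cTEC KO, against 1.78, 0.221, 0.217 and 0 CPM in cTEC WT. Its mTEC KO value was above both mTEC WT values, and cTEC WT 1 stood above the other cTEC WT libraries. Lalba, alpha-lactalbumin, the regulatory subunit of lactose synthase, had 6 counts in mTEC KO, against 4 and 2 in mTEC WT, and none in any cTEC library. A count of 0 is taken to allow up to 3 counts, which is 0.193 CPM in cTEC KO and 0.163 to 0.221 CPM in the cTEC WT libraries, so Lalba in cTECs was under the depth of these libraries rather than shown to be absent.

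Bpifa1, known as PLUNC, a protein of the fluid that lines the nose and airways, was the only one of the 10 with counts in cTEC KO. It had 2281 CPM in mTEC KO, against 449 and 426 CPM in mTEC WT. It had 1151 CPM in cTEC KO, against 1053, 1505, 1104 and 1467 CPM in cTEC WT. Both mTEC WT values were below every other library, and mTEC KO was above them all. Per kb it held rank 24 in mTEC KO, against ranks 146 and 147 in mTEC WT, and rank 24 in cTEC KO, against ranks 30 to 42 in cTEC WT. Per kb the order of the 10 genes put Bpifa1 above Csn2 in mTEC KO and in every cTEC library, and Csn2 above Bpifa1 in both mTEC WT libraries.

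Bpifa2, parotid secretory protein and a relative of Bpifa1, had the pattern of the caseins. It had 7.67 CPM in mTEC KO, against 7.31 and 8.17 in mTEC WT, and 0 counts in cTEC KO, against 0.57, 0.0737, 0 and 0 CPM in cTEC WT. Smr3a, an androgen-regulated protein of the submandibular gland, had 0.181 CPM in mTEC KO, against 0.879 and 2.79 in mTEC WT, and 0 counts in cTEC KO, against 0.214, 0.0737, 0 and 0.164 CPM in cTEC WT. Muc10, a mucin-type glycoprotein of the submandibular gland, had 1 count in mTEC KO, 0.0903 CPM, against 0.714 and 0.422 CPM in mTEC WT. It had 0 counts in cTEC KO, against 0.214, 0, 0 and 0 CPM in cTEC WT. Both of the last genes were lower in mTEC KO than in either mTEC WT library, at levels close to the floor of 3 counts, 0.271 CPM in mTEC KO.

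**Figure D1:**
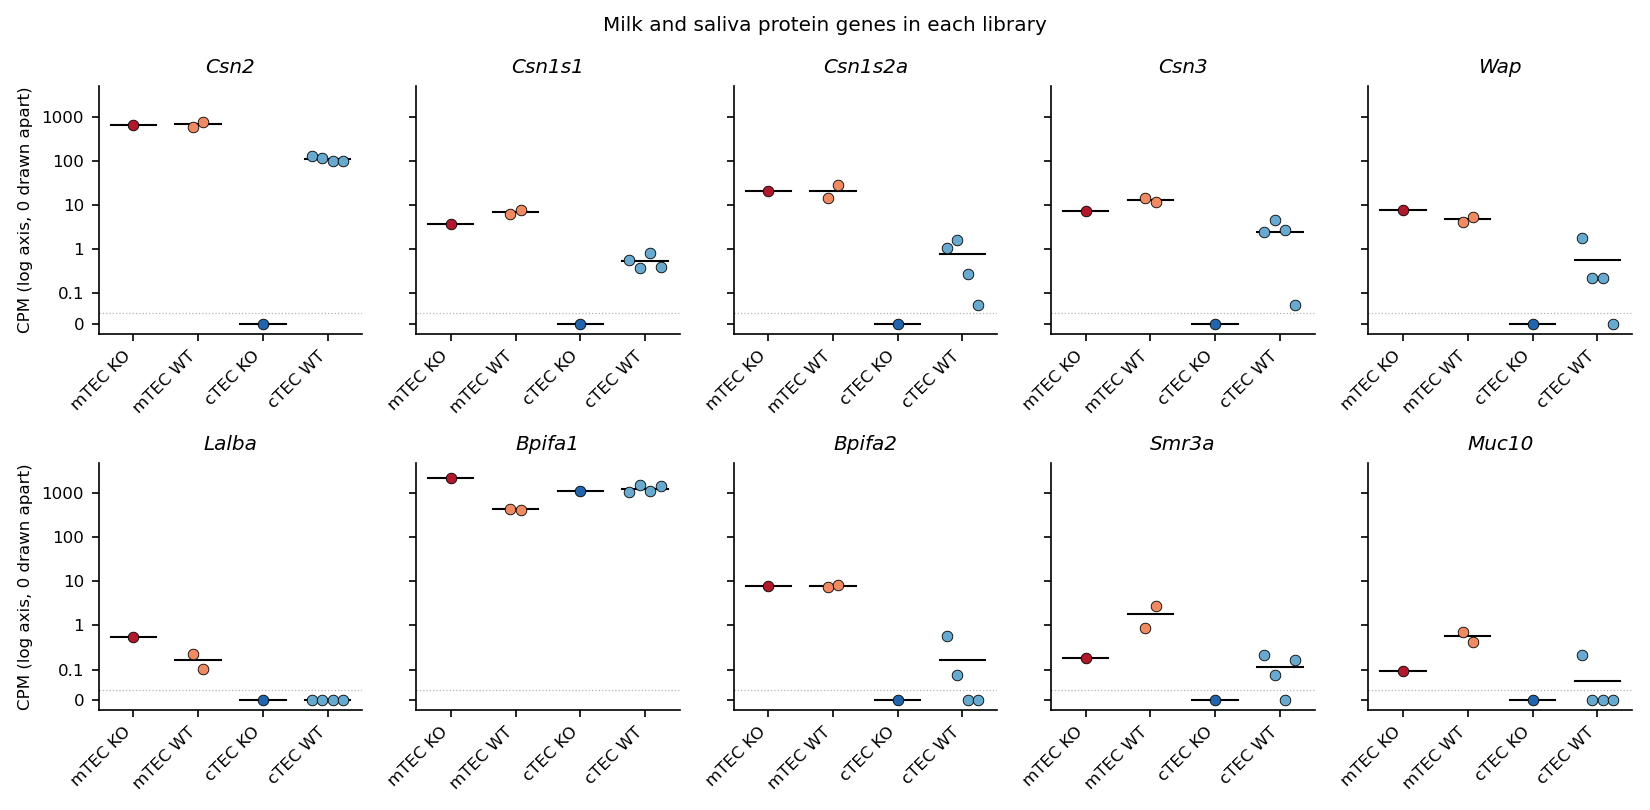
CPM of each of the 10 genes (log axis, 0 drawn apart under the dotted line) in every library, grouped as mTEC KO, mTEC WT, cTEC KO and cTEC WT, where points are libraries and bars group means. All genes but Bpifa1 are at 0 in cTEC KO, and Bpifa1 is the gene whose mTEC WT libraries, at 449 and 426 CPM, are its lowest.

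Detection followed the groups. All 10 genes had a count in mTEC KO and in both mTEC WT libraries. In cTEC KO 1 gene had a count, and 9, 8, 6 and 6 genes did in cTEC WT 1 to 4. Of all 27179 genes 20303 had a count in mTEC KO, 22367 and 22708 in mTEC WT and 17800 in cTEC KO. In cTEC WT 1 to 4 these numbers were 19979, 19765, 20405 and 18704. Without Bpifa1 the summed level of the listed genes was 689 CPM in mTEC KO, against 632 and 818 CPM in mTEC WT. The same sum was 0 in cTEC KO, against 133, 124, 101 and 99.2 CPM in cTEC WT, most of it from Csn2. Of these libraries mTEC KO was the shallowest, and cTEC KO was deeper than cTEC WT 1 and 2.

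The WT medulla and cortex were compared first. Of the 10 genes 7 passed the filter, which asked for 1 CPM or more in 2 libraries or more, and 3 of these, Csn1s1, Wap and Bpifa2, did so through mTEC libraries with fewer than 2 cTEC libraries at that level. By edgeR's quasi-likelihood test with Benjamini-Hochberg adjustment over all 18163 genes tested, 4 genes were called higher in mTEC WT and 1 lower. Over all tested genes 13.2% were called higher and 13.9% lower, 27% in all. Of the 4, Csn1s1 and Bpifa2 had passed the filter through mTEC libraries alone. Of the 1951 such genes in the fit 35% were called higher, so a higher level in mTECs was partly built into their testing. Csn2 averaged 668 ± 121 CPM in mTEC WT (SD, n = 2) and 110 ± 14.1 CPM in cTEC WT (SD, n = 4), a log2 fold change of 2.61 ± 0.17 (SE, adjusted p = 0.000567 by edgeR). Csn1s1 rose by 3.70 ± 0.57 on the log2 scale (edgeR adjusted p = 0.00416) and Csn1s2a by 4.84 ± 0.85 (edgeR adjusted p = 0.00638). Bpifa2 averaged 7.74 ± 0.612 CPM in mTEC WT and 0.161 ± 0.275 CPM in cTEC WT, a log2 fold change of 5.62 ± 1.17 (edgeR adjusted p = 0.0116) that rested on 9 counts in all in cTEC WT. Bpifa1 alone fell, to 437 ± 16 CPM in mTEC WT, against 1282 ± 237 CPM in cTEC WT, a log2 fold change of -1.55 ± 0.21 (edgeR adjusted p = 0.00283).

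Csn3 and Wap did not pass, with log2 fold changes of 2.42 ± 0.95 and 3.13 ± 1.19 (edgeR adjusted p = 0.0912 and 0.0843). Both were called with limma-voom (adjusted p = 0.0205 and 0.0115), which called all 7 genes, and Csn3 with DESeq2 (adjusted p = 0.0475). By edgeR Csn3 was called without cTEC WT 4 (edgeR adjusted p = 0.0171) and Wap without cTEC WT 1 (edgeR adjusted p = 0.00477), the libraries that stood apart for these genes. Without the filter Smr3a had a log2 fold change of 3.94 ± 1.15 (edgeR adjusted p = 0.0377), and Lalba and Muc10 did not pass (edgeR adjusted p = 0.115 and 0.142). For 6 of the 7 tested genes both mTEC WT libraries lay above all 4 cTEC WT libraries, as for 30.2% of all tested genes, and for Bpifa1 both lay below, as for 24.7%. Leaving out mTEC WT 2 left 1 of the 5 calls, Csn2, beside 603 calls over all genes in place of 4912, and leaving out mTEC WT 1 ended the call of Bpifa2 (edgeR adjusted p = 0.0658).

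In the cortex, the KO library was set against WT to ask how loss of Mcl1 touched these transcripts. In cTEC KO 9 of the 10 genes had 0 counts, where 17800 of all 27179 genes had a count. In cTEC WT 8 of the 9, all but Csn2, averaged under 3 CPM, a level at which no share over all genes was taken. Among the 4988 genes of at least 50 CPM in cTEC WT, 0.501% had 0 counts in cTEC KO, and Csn2 was among them. By edgeR 2 of the 7 tested genes were called lower and none higher, where 12.4% of all tested genes were called lower and 5.10% higher, 17.5% in all. Set against the limit of 3 counts, Csn2 was at least 569-fold lower in cTEC KO (edgeR adjusted p = 7.04e-05), and it was called in every alternative run. Csn1s1 was at least 2.77-fold lower (edgeR adjusted p = 0.0365), a call lost with DESeq2 (adjusted p = 0.0558) and limma-voom (adjusted p = 0.229), and by edgeR without mTEC WT 1, mTEC WT 2 or cTEC WT 3 (edgeR adjusted p of 0.0879, 0.0922 and 0.0579).

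The limit left Csn3 at least 12.7-fold lower, Csn1s2a at least 3.91-fold lower and Wap at least 2.88-fold lower in cTEC KO, none of them called by edgeR (adjusted p = 0.0972, 0.161 and 0.257). Csn3 was called without cTEC WT 4 (edgeR adjusted p = 0.00569), and with DESeq2 both Csn3 and Csn1s2a were called (adjusted p = 0.0092 and 0.0433). Bpifa2, Smr3a, Lalba and Muc10 averaged under 0.193 CPM in cTEC WT, so no loss was detectable at this depth. Bpifa1 was at 1151 CPM in cTEC KO, inside the cTEC WT range, with a log2 fold change of -0.16 ± 0.26 (edgeR adjusted p = 0.71).

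**Figure D2:**
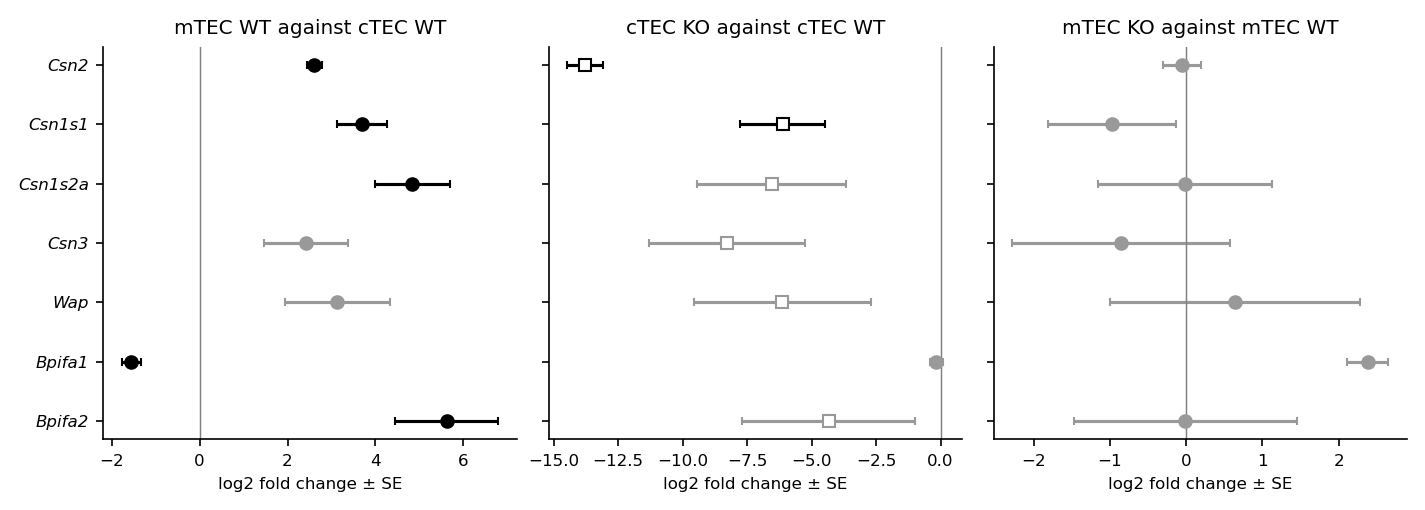
Log2 fold changes with SE of the 7 tested genes in mTEC WT against cTEC WT, cTEC KO against cTEC WT and mTEC KO against mTEC WT, each panel on its own scale, with black for genes past an adjusted p of 0.05 and grey for the rest. Open squares are fitted values against a group at 0 counts, whose size is no estimate, and Bpifa1 is the gene at -1.55 in the panel of mTEC WT against cTEC WT and at 2.38 in that of mTEC KO against mTEC WT.

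In the medulla, edgeR called none of the 18163 tested genes (0%) in mTEC KO against mTEC WT, so none of the 7 genes, with 1502 genes at an unadjusted p under 0.05, 139 genes called by DESeq2 and 0 by limma-voom. In this library the fall of Mcl1 itself was not called. Csn2 had a log2 fold change of -0.06 ± 0.25 (edgeR adjusted p = 0.983). Csn1s2a was at -0.01 ± 1.14 and Bpifa2 at -0.01 ± 1.46 on the log2 scale. Csn1s1 was at -0.97 ± 0.84, Csn3 at -0.85 ± 1.43 and Wap at 0.64 ± 1.64, with SEs above that of Csn2. The mTEC KO library lay above both mTEC WT libraries for 2 of the 7 genes, Wap and Bpifa1, as for 38.7% of all tested genes. Bpifa1 had 2281 CPM in mTEC KO, 5.21-fold the mTEC WT level, a log2 fold change of 2.38 ± 0.27. It had the second smallest unadjusted p of all tested genes (1.65e-05, edgeR) but did not pass adjustment (edgeR adjusted p = 0.0961).

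Few abundant transcripts had a fold change in mTEC KO as large as that of Bpifa1. Of the 4485 genes of at least 50 CPM in mTEC WT, 2 had a log2 fold change of at least 2 in mTEC KO (0.0446%). Over all tested genes the share was 0.952%. The 2 were the fibroblast marker Dcn, at 2.34 ± 0.28, and Bpifa1. Bpifa1 is in this pair because its own level and fold change passed both cut-offs, so the share is a description and no test. It was called with DESeq2 (adjusted p = 2.31e-14) and by edgeR without cTEC WT 1 (edgeR adjusted p = 0.0425). In cTEC KO the same gene stayed within the WT range. The difference between the KO effects, mTEC minus cTEC, was 2.54 ± 0.39 on the log2 scale for Bpifa1 (edgeR adjusted p = 0.00673), where 6.16% of all tested genes had a difference called higher and 0.644% lower, 6.81% in all. Csn2 was the other gene of the 7 with a called difference (edgeR adjusted p = 0.000154), from its 0 counts in cTEC KO, and it was lost with limma-voom (adjusted p = 0.0719).

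The summed fibroblast markers, mainly Dcn, moved with Bpifa1 across the groups, while single markers did not all do so. The 4 markers Pdgfra, Col1a1, Dcn and Lum summed to 767 CPM in mTEC KO, against 145 and 117 CPM in mTEC WT, and to 693 CPM in cTEC KO, against 583 to 834 CPM in cTEC WT, and none was at 0 in any library. Dcn, decorin, made up most of the sum, with 575 CPM in mTEC KO, against 114 ± 21 CPM in mTEC WT, and 573 CPM in cTEC KO, against 672 ± 124 CPM in cTEC WT. Col1a1, a collagen, had 111 CPM in mTEC KO, against 11.1 ± 3.86 CPM in mTEC WT. It was higher in cTEC KO, at 81.5 CPM, against 9.95 ± 4.59 CPM in cTEC WT (edgeR adjusted p = 0.00299), where Bpifa1 lay inside the WT range. Lum had 68.1 CPM in mTEC KO, against 4.95 ± 1.78 CPM in mTEC WT. Pdgfra had 13.4 CPM in mTEC KO, against 1.08 ± 0.488 CPM in mTEC WT. In cTEC KO Lum had 31.3 CPM, against 12.1 ± 5.7 CPM in cTEC WT. Pdgfra had 7.32 CPM in cTEC KO, against 2.66 ± 1.31 CPM in cTEC WT. Neither of these 2 was called in cTEC KO. Erythroid markers also stood at 893 CPM in mTEC KO, against 18.1 to 51 CPM in mTEC WT, and at 380 CPM in cTEC KO, against 8.98 to 65.8 in cTEC WT. The cTEC markers summed to 907 CPM in mTEC KO, against 795 to 830 CPM in mTEC WT. Within the cTEC WT libraries the summed fibroblast markers were in the other order. In cTEC WT 2 and 4, with 1505 and 1467 CPM of Bpifa1, the sum was 583 and 592 CPM. In cTEC WT 1 and 3, with 1053 and 1104 CPM of Bpifa1, it was 834 and 776 CPM. Pdgfra kept the order of the sum, at 3.92, 0.958, 3.42 and 2.36 CPM in cTEC WT 1 to 4. Col1a1, at 5.92, 11.5, 15.7 and 6.63 CPM, and Lum, at 11.7, 14.2, 18 and 4.49 CPM, did not. The part of fibroblast RNA in the Bpifa1 result was not tested.

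Mature mTEC markers moved with Csn2, and so did the summed markers of dendritic cells and macrophages and those of B cells. Those of immature mTECs, tuft cells, secretory mimetic cells and thymocytes were not higher in mTEC WT than in cTEC WT. Immature mTEC markers summed to 1627 and 1461 CPM in mTEC WT, 2760 to 3759 in cTEC WT and 2237 in cTEC KO. That sum hides a split in cTEC KO. Ccl21a had 1.54 CPM there, against 758 ± 142 CPM in cTEC WT (edgeR adjusted p = 0.000109). Krt14, Krt5 and Itgb4 made up the rest, at 1027, 894 and 314 CPM in cTEC KO. In cTEC WT these averaged 1164 ± 142, 1182 ± 280 and 277 ± 48.6 CPM. Tuft markers summed to 633 and 694 CPM in mTEC WT, 914 to 1539 in cTEC WT and 38.2 in cTEC KO. Secretory mimetic markers summed to 104 and 91.2 CPM in mTEC WT, 98 to 391 in cTEC WT and 36.6 in cTEC KO. The mature mTEC markers summed to 1329 CPM in mTEC KO, against 1172 and 1523 CPM in mTEC WT, and to 20.4 CPM in cTEC KO, against 307 to 503 CPM in cTEC WT. The 6 markers of dendritic cells and macrophages summed to 631 CPM in mTEC KO, against 763 and 1032 CPM in mTEC WT. They summed to 9.96 CPM in cTEC KO, with 3 at 0, against 125 to 232 CPM in cTEC WT. Lyz2 alone made up most of these sums. It had 603 CPM in mTEC KO, against 866 ± 179 CPM in mTEC WT. In cTEC KO it had 9.25 CPM, against 172 ± 50 CPM in cTEC WT. The 5 B cell markers summed to 65 CPM in mTEC KO, against 44 and 53.4 CPM in mTEC WT. They summed to 0.642 CPM in cTEC KO, with 2 at 0, against 10.6 to 27.9 CPM in cTEC WT. Thymocyte markers summed to 35.8 and 36.6 CPM in mTEC WT, 37.1 to 101 in cTEC WT and 26.4 in cTEC KO. Fezf2 was at 387 CPM in mTEC KO, against 351 and 421 in mTEC WT, and at 0.321 CPM in cTEC KO, against 119, 120, 86 and 105 in cTEC WT. Csn2 had 1.66 counts per Fezf2 count in mTEC KO, against 1.66 and 1.79 in mTEC WT, and 0.94 to 1.13 in cTEC WT, so that over the 7 libraries with Csn2 counts the ratio varied less than the level. Aire was at 456 CPM in mTEC KO, against 338 and 552 in mTEC WT, and at 0 counts in cTEC KO, against 116, 46, 28.9 and 78 CPM in cTEC WT. Csn2 had 1.41 counts per Aire count in mTEC KO, against 1.73 and 1.36 in mTEC WT, and 1.09 to 3.37 in cTEC WT. Over the same 7 libraries this ratio also varied less than the Csn2 level. Within cTEC WT alone, Csn2 and Aire were both highest in cTEC WT 1 and both lowest in cTEC WT 3. Their order was opposite in cTEC WT 2 and 4. Aire was at least 349-fold lower in cTEC KO (edgeR adjusted p = 0.00313), a call lost with limma-voom (adjusted p = 0.272). The part of medullary or blood-derived cells in the cTEC levels of these genes was not tested.

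**Figure D3:**
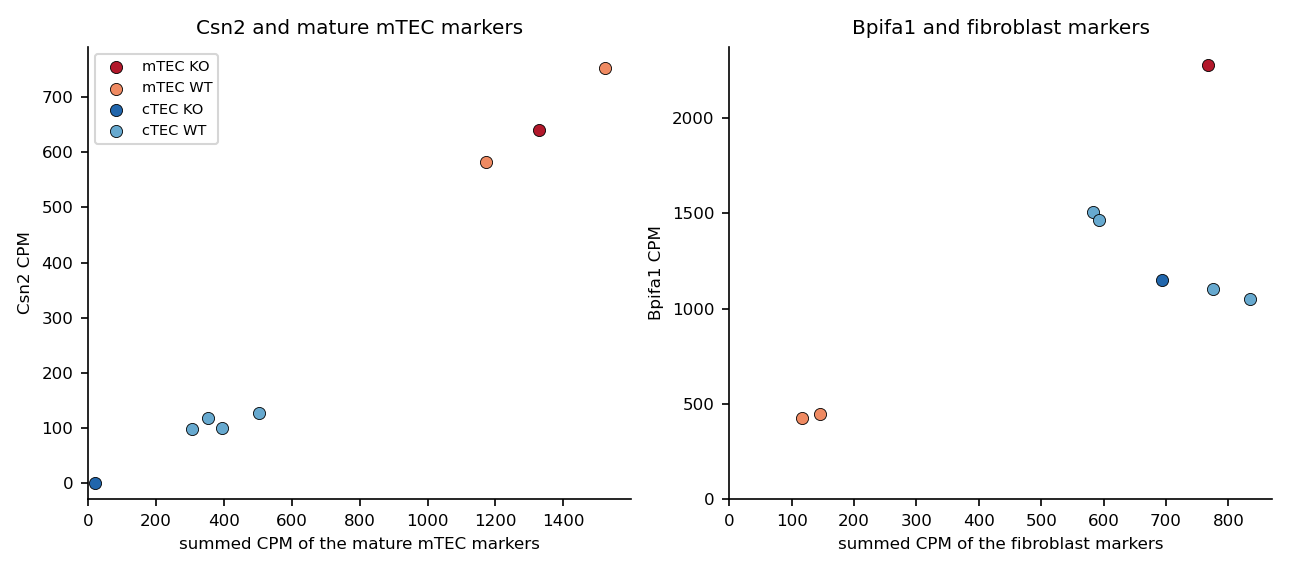
Each point is a library, with the summed CPM of the mature mTEC markers against Csn2 CPM in the left panel and of the fibroblast markers against Bpifa1 CPM in the right panel. Csn2 is at 0 where the mature mTEC sum is 20.4 CPM, in cTEC KO. Bpifa1 is lowest in the 2 mTEC WT libraries, where the fibroblast sum is 145 and 117 CPM.

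The genes most alike to each of the 2 most abundant genes were found by the root mean square difference of log2 CPM over the 8 libraries, each gene centred on its own mean. For Bpifa1 these were Pcolce, a collagen-processing enhancer, at 0.28, and Lipe, Hebp1, Prx and Tmem100 at 0.36, where the median over all tested genes was 0.98. For Csn2 they were Cdx1, an intestinal homeobox factor, at 0.45, Skint1 at 0.51, Skint2 at 0.55, and Aire and Skint9 at 0.57, where the median was 3.79. Skint1 is a thymic epithelial gene needed for a class of skin gamma delta T cells. Csn2 and Aire both had 0 counts in cTEC KO.

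The genes beside the caseins were also low in cTECs. Between Csn1s1 and Enam on chromosome 5, 9 counted genes are not among the 10, and 5 of these were tested. Of the 5, edgeR called 4 higher in mTEC WT than in cTEC WT. All 5 passed the filter through mTEC libraries alone, with fewer than 2 cTEC libraries at 1 CPM, and of the 1951 such genes in the fit 35% were called higher, against 13.2% of all tested genes. The near copy Csn1s2b averaged 1.19 ± 0.491 CPM in mTEC WT and 0.0541 ± 0.0685 CPM in cTEC WT (edgeR adjusted p = 0.0313). The enamel matrix genes followed, with amelotin, Amtn, at 6.78 ± 2.05 CPM in mTEC WT and 0.0178 ± 0.0356 CPM in cTEC WT (edgeR adjusted p = 0.00157), and ameloblastin, Ambn, and enamelin, Enam, also called (edgeR adjusted p = 0.0062 and 0.0138). Each of these 3 had 1 count in all in cTEC WT, so the fitted folds are imprecise. All 9 genes were at 0 in cTEC KO, as were the caseins, and none was called there. Of all 27179 genes 17800 had a count in that library. Fewer of the 4 were called without mTEC WT 1 or 2, fits that left 1 mTEC WT library. With the WT libraries alone 1 of the 4 was called. The others were not tested there, since without mTEC KO they no longer passed the filter. Csn1s2b, for one, was at 1.54 and 0.844 CPM in mTEC WT.

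Beyond the stretch the values were mixed. Jchain, the immunoglobulin joining chain next to Enam, had 0.193 CPM in cTEC KO, against 6.06 ± 3.39 CPM in cTEC WT (edgeR adjusted p = 0.0188), and was not called in mTEC WT against cTEC WT (edgeR adjusted p = 0.898). Utp3, a nucleolar gene after it, had 65.8 CPM in cTEC KO, 75.9 ± 1.87 CPM in mTEC WT and 66 ± 6.16 CPM in cTEC WT. On the other side, beyond Csn1s1, the sulfotransferase Sult1e1 was higher in mTEC WT, at 6.16 ± 0.392 CPM, against 0.228 ± 0.237 CPM in cTEC WT (edgeR adjusted p = 0.0108), and Sult1b1 and Sult1d1 had 0 counts in cTEC KO, against 4.37 ± 3.39 and 3.63 ± 1.7 CPM in cTEC WT (edgeR adjusted p = 0.0254 and 0.00452). The call of Sult1e1 was lost without mTEC WT 1 or 2 (edgeR adjusted p = 0.0655 and 0.0856), and those of Sult1b1, Sult1d1 and Jchain in cTEC KO with limma-voom (adjusted p = 0.254, 0.0941 and 0.228). Around Wap on chromosome 11 edgeR called 1 of 10 tested neighbours higher in mTEC WT, Igfbp1 (edgeR adjusted p = 0.0465), a call lost with the WT libraries alone (edgeR adjusted p = 0.0507) and in 5 of the 6 fits that left out a WT library, and around Lalba on chromosome 15 none of 4.

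Bpifa1 fell in mTEC WT while no tested gene around it was called lower. On chromosome 2 its stretch holds 10 other counted BPI fold genes besides Bpifa2, of which 9 were tested and 6 called higher in mTEC WT by edgeR, none lower. Of the 9, 6 passed the filter through mTEC libraries alone, a class of which 35% were called higher over all genes, against 13.2% of all tested genes. Bpifb1, an airway relative, averaged 34.6 ± 2.72 CPM in mTEC WT and 10 ± 1.32 CPM in cTEC WT (edgeR adjusted p = 0.0017). Bpifb5 averaged 9.27 ± 0.681 CPM in mTEC WT and 0.251 ± 0.321 CPM in cTEC WT (edgeR adjusted p = 0.00696). In cTEC KO 9 of the 10 were at 0 and Bpifb1 had 1 count, while Bpifa1 between Bpifa3 and Bpifa5 had 17923 counts. Of all 27179 genes 17800 had a count there. In mTEC KO, where Bpifa1 was 5.21-fold the mTEC WT level, the neighbours were mixed. Bpifa5, its next gene, had 10.4 CPM in mTEC KO, against 14.9 and 24.9 CPM in mTEC WT, while Bpifb1 had 50.2 CPM in mTEC KO, against 32.7 and 36.5 in mTEC WT, Bpifb2 19.5 CPM, against 8.24 and 13.8, and Bpifb5 15.6 CPM, against 8.79 and 9.76. None of the 9 was called there. The 6 calls in mTEC WT became 3 and 1 without mTEC WT 1 or 2. Cdk5rap1, a gene of another family inside the stretch, was at 15 CPM in cTEC KO, 12.4 ± 2.38 CPM in mTEC WT and 12.1 ± 2.32 CPM in cTEC WT.

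Other milk genes were called higher in mTEC WT more often than all genes, and lower about as often. Of 22 further milk protein and lactation genes 21 were tested, and edgeR called 10 higher and 3 lower in mTEC WT, where 13.2% of all tested genes were called higher and 13.9% lower. The median log2 fold change was 1.07, against 0.06 over all tested genes, and 3 of the 21 passed the filter through mTEC libraries alone. Wfdc18, a whey acidic protein relative, was the highest, with 2272 CPM in mTEC KO, against 2503 ± 175 CPM in mTEC WT, and 21.1 CPM in cTEC KO, against 900 ± 388 CPM in cTEC WT. Saa3, a serum amyloid made in colostrum, averaged 896 ± 146 CPM in mTEC WT and 119 ± 95.9 CPM in cTEC WT, and Lpo, lactoperoxidase, 245 ± 49.3 CPM in mTEC WT and 117 ± 30.9 CPM in cTEC WT. The other higher genes were Csn1s2b, Muc1, Spp1, Cel and the lipid genes Plin2, Fabp3 and Cd36. Cd36 was at 89.4 CPM in mTEC WT 1 and 6.54 CPM in mTEC WT 2, and without mTEC WT 1 its log2 fold change was 0.57 (edgeR adjusted p = 0.586). The 3 endothelial markers summed to 34 CPM in mTEC WT 1 and 6.01 CPM in mTEC WT 2, and their part in the Cd36 value was not tested. The 3 lower genes were Ltf, lactoferrin, and 2 metabolic enzymes, Xdh at 66.1 ± 10.4 CPM in mTEC WT and 340 ± 74.1 CPM in cTEC WT, and Fasn, fatty acid synthase. Mfge8, a protein of milk fat globules, averaged 144 ± 6.78 CPM in mTEC WT and 177 ± 46.6 CPM in cTEC WT and was not called (edgeR adjusted p = 0.393). Without mTEC WT 1 or 2 the 13 calls became 4 and 3.

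In cTEC KO edgeR called 10 of the 21 tested milk genes lower and none higher, where 12.4% of all tested genes were called lower and 5.10% higher, with a median log2 fold change of -2.90, against -0.14 over all tested genes, also with the genes at 0 counts set at their limit. They were Wfdc18, at -5.42 ± 0.62 (edgeR adjusted p = 0.000899), Lpo, at -4.89 ± 0.46 (edgeR adjusted p = 0.000369), Saa3, Ltf, Muc1, Muc15, Pigr, Spp1, Pthlh and Slc34a2. Unlike 9 of the 10 genes above, most of these kept some counts, and 3 of the 22 were at 0. Levels were not matched in this contrast. Those 9 genes, all but Csn2, averaged at most 2.45 CPM in cTEC WT. Of the called milk genes Wfdc18 averaged 900 CPM there and Slc34a2 26.9 CPM. Muc15, at 4.29 CPM in cTEC WT, had 0 counts in cTEC KO. With limma-voom the 10 calls became 4. In mTEC KO none of the 21 was called by edgeR.

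Other saliva and airway genes had the direction of Bpifa2 more often than that of Bpifa1. Of 29 further genes 22 were tested, and edgeR called 11 higher and 2 lower in mTEC WT, where 13.2% of all tested genes were called higher and 13.9% lower. The median log2 fold change was 2.00, against 0.06 over all tested genes, and 6 of the 22 passed the filter through mTEC libraries alone. Klk1, a submandibular kallikrein, had 105 CPM in mTEC KO, against 230 ± 11.4 CPM in mTEC WT, and 0 counts in cTEC KO, against 50.3 ± 28.4 CPM in cTEC WT (edgeR adjusted p = 0.0144 for mTEC WT against cTEC WT). Mucl2, Cst10, Lcn11, Obp1a, Pip, Muc5ac, the airway secretoglobin Scgb1a1 and the near copies Dcpp1, Dcpp2 and Dcpp3, which may share reads, were also higher, and salivary amylase, Amy1, and Ltf were lower. Lyz1, a lysozyme, had 2.06 CPM in cTEC KO, against 549 ± 405 CPM in cTEC WT, and Muc5b, an airway and salivary mucin, 16.8 CPM in cTEC KO, against 95.2 ± 70.5 CPM in cTEC WT (edgeR adjusted p = 0.00299 and 0.211). In cTEC KO 19 of the 29 were at 0, where 17800 of all 27179 genes had a count. Of the 22 tested 7 were called lower and none higher, where 12.4% of all tested genes were called lower. Their median was -1.27 with genes at 0 set at their limit. Without mTEC WT 1 or 2 the 13 calls became 4 and 3, and with limma-voom the 7 became 1. In mTEC KO none of the 22 was called by edgeR, with a median log2 fold change of -0.01. Scgb3a1, Scgb3a2 and Aqp5 were higher there, as Bpifa1 was, at 33.7, 74.5 and 39.2 CPM. In mTEC WT they averaged 5.6 ± 1.7, 9.77 ± 5.46 and 10.5 ± 3.81 CPM. Their cTEC KO values were 28.5, 10.1 and 22 CPM, against 13.5 ± 16.6, 18.8 ± 15.6 and 32.3 ± 24.6 CPM in cTEC WT.

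Of all 15 further BPI fold family genes 14 were tested, and edgeR called 8 higher and 2 lower in mTEC WT, against 13.2% and 13.9% of all tested genes. The median log2 fold change was 2.91, and 7 of the 14 passed the filter through mTEC libraries alone. The 2 that fell with Bpifa1 were Lbp, the lipopolysaccharide binding protein, at 19.7 ± 6.85 CPM in mTEC WT and 48.4 ± 8.95 CPM in cTEC WT, and Pltp, phospholipid transfer protein, at 91.8 ± 17.6 CPM in mTEC WT and 700 ± 142 CPM in cTEC WT. Pltp was the family member called higher in cTEC KO, at 2309 CPM (log2 fold change 1.72 ± 0.26, edgeR adjusted p = 0.00343), and 5 were called lower there, Bpifb1, Bpifb2, Bpifc, Bpi and Lbp. Bpifc averaged 52 ± 1.4 CPM in mTEC WT and 10 ± 6.28 CPM in cTEC WT (edgeR adjusted p = 0.00876). The median in cTEC KO was -1.34 with genes at 0 set at their limit. Without mTEC WT 1 or 2 the 10 calls became 4 and 3, and with limma-voom the 6 in cTEC KO became 1.

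**Figure D4:**
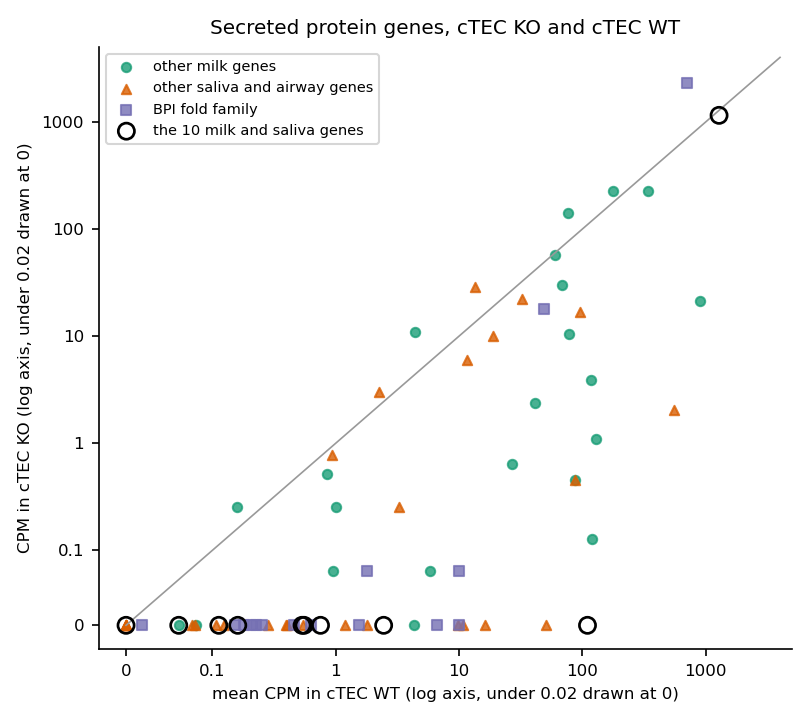
CPM in cTEC KO on the vertical axis against mean CPM in cTEC WT on the horizontal axis (log axes, values under 0.02 drawn at 0) for the other milk genes, the other saliva and airway genes, the BPI fold family and, ringed, the 10 milk and saliva genes, with equality as a line. Csn2 is the ringed point at 110 CPM in cTEC WT and 0 in cTEC KO, and Bpifa1 the ringed point near the line at 1151 and 1282 CPM.

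The regulators of lactation and of secretory glands were measured beside their targets. Of 20 such genes 19 were tested, and edgeR called 3 higher and 2 lower in mTEC WT, close to the 13.2% and 13.9% of all tested genes, with a median log2 fold change of 0.21. The 3 higher genes were Prlr, the prolactin receptor, at 22.7 ± 5.04 CPM in mTEC WT and 9.7 ± 1.73 CPM in cTEC WT, Stat5a at 115 ± 16.1 CPM in mTEC WT and 69 ± 6.14 CPM in cTEC WT, and Socs2, a STAT5 target that feeds back on cytokine receptors, at 96.2 ± 15.4 CPM in mTEC WT and 45.6 ± 7.65 CPM in cTEC WT (edgeR adjusted p = 0.0169, 0.0126 and 0.0073). Nfib and Pgr were the 2 lower genes. Other genes of the prolactin route were not called, with log2 fold changes of -0.35 ± 0.16 for Jak2, -0.24 ± 0.18 for Stat5b and 0.21 ± 0.16 for Cish, a further STAT5 target. Each of the 3 calls was lost without mTEC WT 1, and each was lost without mTEC WT 2, so that the 5 calls became 1 in either fit. In cTEC KO 9 were called lower and 1, Nfib, higher, against 12.4% and 5.10% of all tested genes, with a median of -0.72. Stat5a had 14 CPM in cTEC KO, against 69 ± 6.14 CPM in cTEC WT (log2 fold change -2.30 ± 0.25, edgeR adjusted p = 0.000725), and Foxa2, a forkhead factor of airway epithelium, 0 counts in cTEC KO, against 4.16 ± 1.51 CPM in cTEC WT. With limma-voom the 10 calls became 4. In mTEC KO Stat5a was at 118 CPM and Prlr at 16 CPM, and none of the 19 was called by edgeR.

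Of 16 regulators of antigen expression in the medulla, all tested, edgeR called 6 higher and 1 lower in mTEC WT, against 13.2% and 13.9% of all tested genes, with a median log2 fold change of 0.37. They were Aire (2.73 ± 0.48, edgeR adjusted p = 0.00685), Fezf2 (1.84 ± 0.18, edgeR adjusted p = 0.000984), Sirt1, Irf8, Tnfrsf11a and Cd40, with Hdac3 lower. In cTEC KO 7 were called lower, Aire, Fezf2, Prdm1, Prkdc, Tnfrsf11a, Cd40 and Nfkb2, and 1, Parp1, higher, against 12.4% and 5.10% of all tested genes. Fezf2 had a log2 fold change of -8.35 ± 0.45 there (edgeR adjusted p = 7.26e-05). Without mTEC WT 1 or 2 the 7 calls in mTEC WT became 4 and 1, and with limma-voom the 8 in cTEC KO became 4. The 8 became 5 without mTEC WT 1, mTEC WT 2 or cTEC WT 3. None of the 16 was called in mTEC KO by edgeR, where Aire and Fezf2 had log2 fold changes of 0.03 ± 0.70 and 0.00 ± 0.26.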

How the data were processed

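Polyadenylated RNA of 8 libraries was measured. Per the labels' protocols, frozen pellets gave full-length cDNA from a low-input kit, which was tagmented and sequenced from both ends. Per the submitters' processing notes, featureCounts and mm10 were used. The sources used here give no aligner, version, annotation or strand setting. The deposited files hold raw counts per Entrez gene, unnormalized, which the authors made from those reads. A series-wide table was not used, since its 8 columns match no sample label. Of 27179 identifiers 25275 (93%) had a symbol in the RefSeq table, and Muc10 was matched as a synonym of Prol1. The 1904 identifiers with no symbol held 0.887 to 1.683% of counts and were tested but not named.

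Groups followed the titles. The 18163 genes with 1 CPM or more in 2 libraries or more were scaled by TMM and tested, two-sided, with the robust quasi-likelihood F test of edgeR 4.0.16 in R 4.3.3, fitting a mean for each group (4 residual degrees of freedom) and Benjamini-Hochberg adjustment, and were called under 0.05. The SE is the absolute log2 fold change divided by the square root of F. Each KO library is assumed to vary like the WT libraries. Without molecular identifiers, limits of 3 counts cover only counting error. Alternatives were RLE scaling, other filters, DESeq2 1.42.0, limma-voom (limma 3.58.1), WT libraries alone, a replicate block and leaving out each WT library.

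The 10 genes, the lists and the motifs were chosen with earlier results of these data known. Named genes were the 10, Mcl1, Aire and Fezf2, the genes between and 5 to each side of them on a chromosome, the 5 most alike in pattern to the 2 most abundant, and up to 4 of highest mean CPM per list plus any called, of which not all are named. Of the saliva list 1 name had no entry and 2 repeated another gene, and of the BPI fold list 1 had no entry. Ltf is in both the milk and the saliva list, and 4 genes are in both the medullary regulators and the mature mTEC markers.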

Additional observations from a re-analysis of the deposited data

Results flagged for a closer look

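In cTEC WT 1 Wap was at 1.78 CPM, Bpifa2 at 0.57 CPM and Muc10 at 0.214 CPM, each far above the other 3 cTEC WT libraries, whose highest values were 0.221, 0.0737 and 0 CPM. The gap passed Dixon's 95% critical value for 4 samples, which is set for normally spread values. A gene with a count in 1 of the 4 libraries alone, as Muc10, passes it by construction. No chance rate can therefore be given for these low counts. The Muc10 and Bpifa2 values are 3 and 8 counts. This library also had the highest Aire level of the 4, 116 CPM, and the highest mature mTEC marker sum, 503 CPM, and the part of these in the 3 values was not tested.

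The KO effect differed between mTECs and cTECs for 2 genes. For Csn2 the fitted difference was 13.72 on the log2 scale, from 641 CPM in mTEC KO, against 583 and 754 CPM in mTEC WT, and 0 counts in cTEC KO, against 97.4 to 126 CPM in cTEC WT. Its size is no estimate, because 1 group is at 0. For Bpifa1 the difference was 2.54, from 2281 CPM in mTEC KO, against 449 and 426 CPM in mTEC WT, and 1151 CPM in cTEC KO, inside the cTEC WT range of 1053 to 1505 CPM.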

How the results depend on the processing

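No alternative reversed a called value of the 10 genes. The count of the 10 genes called in mTEC WT against cTEC WT was 5 and ran from 1 to 6 when a WT library was left out and up to 7 with limma-voom, and over all genes 4912 became 603 to 6762. In cTEC KO against cTEC WT the count of 2 became 1 with limma-voom and ran from 1 to 3 with a library left out, while 3179 calls over all genes became 1726 with limma-voom and 2256 to 4182 with a library left out. In mTEC KO against mTEC WT the count of 0 became 1 with DESeq2, with 139 calls over all genes, and ran from 0 to 1, with 0 to 7 over all genes, when a library was left out. For the difference of KO effects the count of 2 became 1 with limma-voom and ran from 2 to 3 with a library left out, and 1236 calls over all genes became 2050 with DESeq2, 104 with limma-voom and 649 to 1849 with a library left out. The cause of these shifts was not tested, beyond the fewer samples of the fits without a library.

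Both WT groups have libraries numbered 1 and 2, but same-numbered libraries did not deviate together (correlations of -0.146 and -0.019), and no pairing was assumed. With the replicate block over WT libraries 1 and 2, the calls of the 10 genes in mTEC WT against cTEC WT stayed at 5 and those over all genes became 2094. The alternatives for the gene lists were chosen after the data were seen. Genes under 0.193 CPM in cTEC WT could not be shown to fall in cTEC KO at this depth.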
